A study of Mus musculus with 9 samples.

Results

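Vcam1 and 8 other adhesion molecules that are not integrins (Icam1, Icam2, Pecam1, Selplg, Cd44, F11r, Jaml and Alcam) were followed through 9 RNA sequencing libraries of mouse acute myeloid leukemia cells. The 9 genes were chosen by symbol, and each had 1 row among the 55536 genes of the expression table. The leukemia carried MLL-AF9 together with GFP from a retrovirus, and was started from c-kit+ cells of wild-type (WT) or IRF7-/- C57BL/6J mice. GFP+ leukemia cells had been transplanted into C57BL/6J recipients of 6 to 8 weeks without irradiation, and cells were sorted from the bone marrow at day 18. There were 3 libraries each of WT c-kit-, WT c-kit+ and IRF7-/- c-kit+ cells, and c-kit is the surface receptor encoded by Kit. All 3 groups carry MLL-AF9 and GFP, and the labels give the genotype as control or IRF7-/- on that background. In the IRF7-/- line a PGK-beta-geo cassette replaces exons 2 and 3 of Irf7, a transcription factor of the type I interferon response. No IRF7-/- c-kit- group was analysed here, and the sources do not say whether the libraries of a group are separate mice, so the p-values measure the spread between these libraries, which may be technical.

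VCAM1 is an immunoglobulin-family protein best known from activated endothelium and from stromal cells and macrophages of the bone marrow, where it binds the integrin VLA-4 (alpha4 beta1) on leukocytes. ICAM1 and ICAM2 are the ligands of LFA-1 (alphaL beta2), and PECAM1 mostly binds itself at the junctions that leukocytes cross. PSGL-1, the product of Selplg, is the main ligand of the selectins and needs particular sugars to bind them, CD44 binds hyaluronan, and the products of F11r (JAM-A), Jaml and Alcam join cells through proteins of their own family, integrins, CXADR or CD6. Leukocytes carry several of these molecules themselves, so a ligand and its receptor can be found on the same leukemia cell.

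Levels were in TPM, a measure of transcript abundance that corrects for gene length and library total and so allows genes to be compared with each other. Because TPM hold no read numbers, the depth is unknown and no counting interval can be given. Irf7, the gene targeted in the knockout, was at 23.5, 22.3 and 32.3 TPM in WT c-kit-, at 5.31, 3.91 and 3.36 TPM in WT c-kit+, and at 12.8, 5.97 and 7.95 TPM in the libraries labelled IRF7-/- c-kit+. The last 3 values all lie above WT c-kit+ (log2 fold change 0.89, limma adjusted p = 0.0321, and 0.0557 to 0.0949 in 7 of 13 alternatives). The paper reports checking IRF7 in its models by qRT-PCR and Western blot, which the deposited values do not hold. A value for the whole gene does not read the deleted exons alone, so here it can neither bear out nor contradict the label. These libraries are therefore called the labelled IRF7-/- c-kit+ libraries, and any direction given for them depends on that label. Kit followed the sort, with 0.52 to 3.03 TPM in WT c-kit-, 50.7 to 58.5 TPM in WT c-kit+ and 70.3 to 85.7 TPM in the labelled IRF7-/- c-kit+ libraries. All 10 markers of leukemic myeloid cells reached 1 TPM in some library of every group. On log2(TPM + 1), libraries of a group correlated at 0.973 to 0.984 and libraries of different groups at 0.851 to 0.933. The 10 most abundant genes held 13.1 to 17.3% of all TPM in WT c-kit+ against 9.39 to 10.3% elsewhere, so each result was also computed under other scalings.

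3 sequences are shown because they mark what the values below can and cannot see. In GRCm38, Vcam1 (ENSMUSG00000027962) occupies chr3:116109949-116129688 on the minus strand and has 4 annotated transcripts in GENCODE M21, 3 of them coding, with up to 9 exons. The TPM are given per gene and do not separate these transcripts. The qPCR primers that the study designed for Vcam1 lie together in 1 of the 4 transcripts, from base 1325 to base 1521 of a coding transcript whose coding part runs from base 322 to base 2538. That stretch of 197 bases is printed 5′ to 3′ with the sites of the forward primer and of the reverse primer in capitals.
Vcam1, GENCODE M21 transcript: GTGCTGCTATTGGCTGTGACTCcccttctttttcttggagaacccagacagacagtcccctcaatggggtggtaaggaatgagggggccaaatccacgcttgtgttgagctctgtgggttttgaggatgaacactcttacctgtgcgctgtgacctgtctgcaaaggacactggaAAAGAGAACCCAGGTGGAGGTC
Icam1 and Jaml are shown by the 250 bases before their RefSeq start site in GRCm38.p6, because their levels moved in opposite directions between the c-kit+ groups and because among the 5 members with a promoter sequence they are the ones that held a letter match to an NF-kB, interferon or STAT element. Between the WT groups they moved the same way, both lower in WT c-kit+, by log2 fold changes of -1.04 and -1.42. Capitals mark GGAANTTCC, which is an NF-kB element of the ICAM1 type, and TTCNNNGAA, a STAT element, in Icam1, and GAAA, any 2 bases and GAAA again, an interferon-stimulated element, on the minus strand in Jaml.
Icam1, chr9:21015690-21015939, plus strand: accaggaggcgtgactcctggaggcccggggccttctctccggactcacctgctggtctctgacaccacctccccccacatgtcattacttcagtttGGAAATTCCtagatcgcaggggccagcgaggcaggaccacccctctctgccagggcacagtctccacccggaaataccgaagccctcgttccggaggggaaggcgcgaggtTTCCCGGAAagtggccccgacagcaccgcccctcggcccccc
Jaml, chr9:45078933-45079182, plus strand: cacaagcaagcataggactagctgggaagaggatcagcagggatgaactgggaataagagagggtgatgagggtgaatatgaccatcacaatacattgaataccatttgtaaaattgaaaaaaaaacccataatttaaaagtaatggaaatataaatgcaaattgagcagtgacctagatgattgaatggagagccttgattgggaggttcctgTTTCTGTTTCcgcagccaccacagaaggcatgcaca
Both strands were searched, over 250 bases before and 50 bases after each start, in 32851 promoters of the same length. GGAANTTCC began 153 bases before the start of Icam1 and was found in 0.928% of all promoters, and TTCNNNGAA began 42 bases before it and was found in 8.30%. The interferon-stimulated element began 36 bases before the start of Jaml and was found in 3.44% of all promoters. GGG and CCC with any 4 bases between them, another form of the NF-kB element, were in 11.9% of promoters and in none of the 5 members'. TATAAA, in 13.6% of promoters, was in Icam1 and Jaml, and GATAAG, in 7.44%, was in Cd44. TATAAA began at base 14 after the start of Icam1, outside the printed stretch, and 100 bases before the start of Jaml. F11r and Alcam held none of the 6 motifs. These are matches of letters and not sites of binding. The 5 members with a sequence were Icam1, Cd44, F11r, Jaml and Alcam.

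The first comparison asked how the c-kit+ cells, which hold the more primitive leukemia cells, differ from c-kit- cells of the same WT leukemia. Vcam1 was the member that was higher in WT c-kit+, while Icam1, Pecam1, Selplg and Jaml were lower there. A gene was called when its log2 fold change was at least 1 in size and its limma adjusted p, over all genes tested, was under 0.05. By this rule 1 of 9 members was higher, against 4.83% of the 13261 genes tested, and 4 were lower, against 9.61%. 6 members had an adjusted p under 0.05 alone, against 41.6% of genes, and in 7 the libraries of the groups did not overlap, against 54.4%. 2 members, Vcam1 and F11r, passed the filter on low values through 1 group only and so had to differ to be tested. The median log2 fold change was -0.94 over the members and -0.08 over all genes. The calls of Icam1 and Pecam1 ended under both other scalings and without replicate 2 of WT c-kit- or replicate 1 of WT c-kit+, which left 3 members called in each of these 4 settings.

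The second comparison asked what differs between the c-kit+ populations of each genotype. Vcam1, Icam1, Icam2 and Pecam1, the ligands of VLA-4 and LFA-1 and the junctional molecule PECAM1, were higher in the labelled IRF7-/- c-kit+ libraries than in WT c-kit+, and Jaml and Alcam were lower. So 4 of 9 members were called higher, against 6.30% of the 13238 genes tested, and 2 lower, against 5.39%. 7 members had an adjusted p under 0.05 alone, against 48.0% of genes, and in 8 the groups did not overlap, against 59.1%. 1 member, Jaml, passed the filter through WT c-kit+ only. The median gene was itself 0.12 higher on the log2 scale in the labelled IRF7-/- c-kit+ libraries. Relative to that gene the differences were 3.07 for Vcam1, 1.00 for Icam1, 0.97 for Icam2, 1.09 for Pecam1, -1.25 for Jaml and -3.19 for Alcam.

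Against WT c-kit-, the same labelled IRF7-/- c-kit+ libraries were higher in Vcam1 and lower in Selplg, Jaml and Alcam, while Icam1 and Pecam1 overlapped. 1 of 8 members tested was called higher, against 8.40% of the 13510 genes tested, and 3 were called lower, against 11.9%. 6 members had an adjusted p under 0.05 alone, against 59.4% of genes, and in 6 of 9 the groups did not overlap, against 67.1%. F11r was not tested, having under 1 TPM in most of these libraries, and Vcam1 and Jaml passed the filter through 1 group only. This last comparison differs in both genotype and c-kit sort, which cannot be told apart in it. Each group takes part in a pair of comparisons, so the 3 comparisons share libraries. By construction the log2 fold change of a gene in the last comparison is the sum of those in the others, so it is not a separate result. Beside each other, the log2 fold changes of Vcam1 were 2.97, 3.19 and 6.17 in the order given here, and those of Alcam were -0.05, -3.07 and -3.12.

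**Figure D1:**
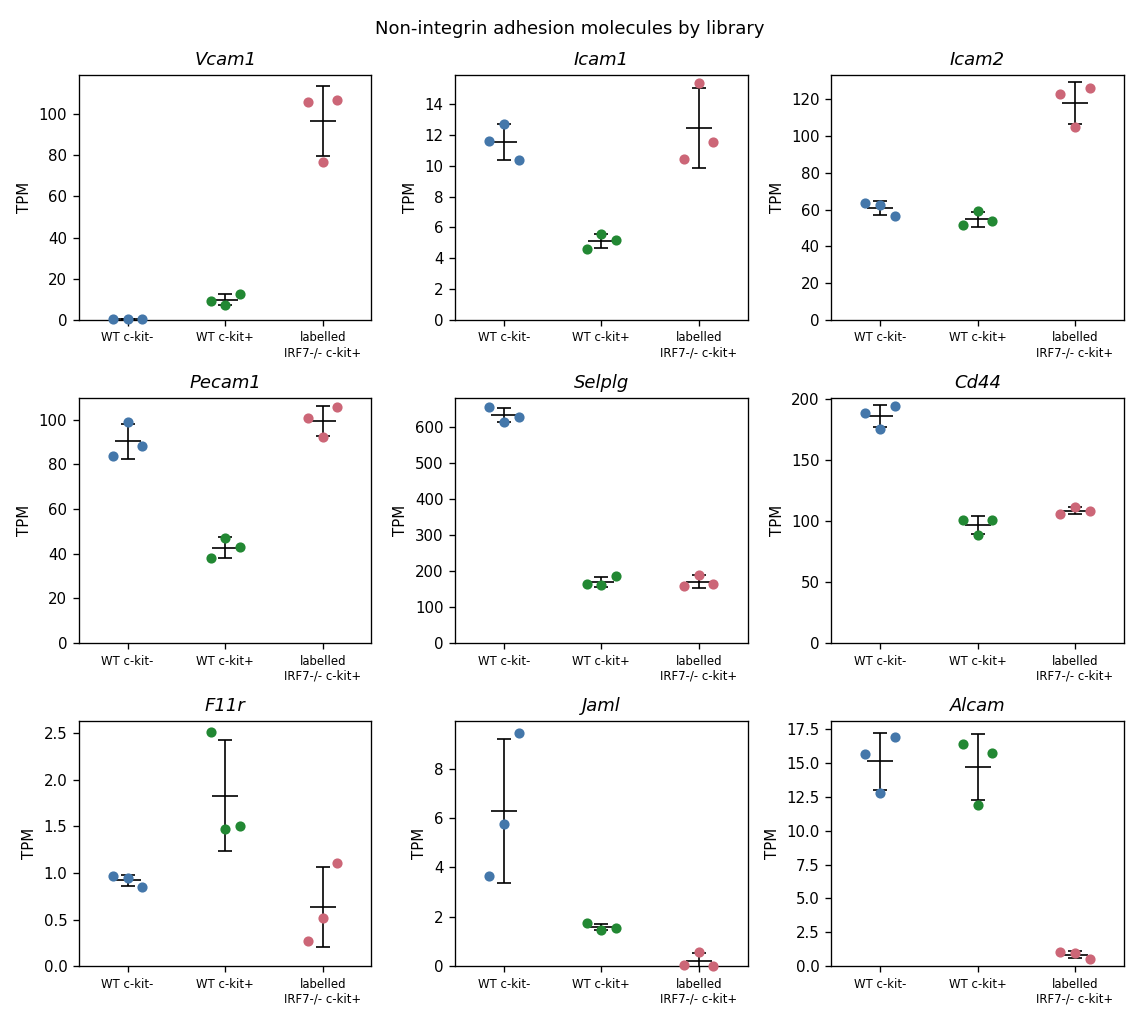
TPM of the 9 adhesion molecules (vertical axes, linear and starting at 0) in the 3 groups, with 1 point per library and the mean ± SD of 3 libraries in black. Vcam1 is at 0.22 to 0.50 TPM in WT c-kit- and at 76.9 to 107 TPM in the labelled IRF7-/- c-kit+ libraries, and Selplg is at 614 to 655 TPM in WT c-kit-.

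Vcam1 was at 0.22, 0.32 and 0.50 TPM in WT c-kit-, at 9.20, 7.42 and 12.7 TPM in WT c-kit+, and at 106, 76.9 and 107 TPM in the labelled IRF7-/- c-kit+ libraries. The groups did not overlap, and every step was wider than the spread within the groups. The mean rose from 0.35 ± 0.14 to 9.76 ± 2.67 TPM between the WT groups (SD, n = 3), a ratio of 28.2, with a log2 fold change of 2.97 ± 0.21 (SE, limma adjusted p = 8.3e-05). Between the c-kit+ groups it went from 9.76 ± 2.67 to 96.5 ± 17.0 TPM, a ratio of 9.89, with a log2 fold change of 3.19 ± 0.20 (SE, limma adjusted p = 0.000101). From WT c-kit- to the labelled IRF7-/- c-kit+ libraries the log2 fold change was 6.17 ± 0.16 (SE, limma adjusted p = 2.2e-06). Fold changes are on log2(TPM + 1) throughout, which understates the change of a gene under 1 TPM such as Vcam1 in WT c-kit-. With a pseudocount of 0.1 the comparisons with WT c-kit- gave 4.48 and 7.79. By exact permutation of the libraries, two-sided, p was 0.1 in each comparison, which is as small as 3 against 3 can give.

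By size of log2 fold change Vcam1 stood at place 42 from the top of 13261 genes between the WT groups, at place 50 of 13238 between the c-kit+ groups and at place 4 of 13510 between the outer groups. Its place among genes detected in a group moved from percentile 35.0 in WT c-kit- to 64.6 in WT c-kit+ and 93.6 in the labelled IRF7-/- c-kit+ libraries. In the last group its mean stood beside Pecam1, Cd44 and Icam2, with ranges that overlapped between neighbours in that order. Gm43109, an antisense RNA, overlaps the 5′ end of Vcam1 at chr3:116128451-116141016 on the plus strand. Whether strand was used in counting is not given, and Gm43109 itself was at 0 to 0.22 TPM.

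Since Vcam1 rose with the sort for c-kit, it was set beside Kit library by library. The ratio of Vcam1 TPM to Kit TPM was 0.165 to 0.423 in WT c-kit-, 0.127 to 0.247 in WT c-kit+ and 1.09 to 1.25 in the labelled IRF7-/- c-kit+ libraries. The ratios of the WT groups overlapped and the third group lay above both. In WT c-kit- the ratio divides low values, Vcam1 at 0.22 to 0.50 TPM by Kit at 0.52 to 3.03 TPM. That overlap therefore cannot show whether Vcam1 follows Kit between the WT groups. Kit itself was higher in the labelled IRF7-/- c-kit+ libraries than in WT c-kit+ by a log2 fold change of 0.58 ± 0.10 (SE, limma adjusted p = 0.00385), while Vcam1 differed by 3.19. With all 9 libraries in one fit the adjusted p of that Kit difference was 0.136. In bulk RNA, more cells with Vcam1 and more Vcam1 RNA per cell cannot be told apart.

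Other cells of the marrow were read by lists of their markers, although the labels describe a sort of leukemia cells and an isolation by c-kit. The single markers named here and in the next paragraph lie outside the rule for named genes and were picked after their values were seen. Of 10 endothelial markers, 1 reached 1 TPM in WT c-kit-, 1 in WT c-kit+ and 2 in the labelled IRF7-/- c-kit+ libraries. Egfl7 led in each group, at 5.15 TPM on average in the labelled IRF7-/- c-kit+ libraries and 5.16 TPM in WT c-kit+. Cdh5, Kdr and Tek, which define endothelium, did not exceed 0.24 TPM in any library and Sox17 was at 0 in all 9. Tie1 was the exception, at 4.44, 2.16 and 3.71 TPM in the labelled IRF7-/- c-kit+ libraries and at most 0.04 TPM elsewhere. The summed level of the 10 was 2.62 to 3.51 TPM in WT c-kit-, 5.12 to 6.48 TPM in WT c-kit+ and 8.40 to 9.30 TPM in the labelled IRF7-/- c-kit+ libraries. Without Egfl7 it was 0.27 to 0.56, 0.27 to 0.77 and 2.92 to 4.53 TPM, so that the WT groups overlapped and the labelled libraries lay above both.

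Of 10 stromal markers, Lepr was the most abundant in every group, and the sum without it was 4.05 to 6.41, 2.02 to 3.23 and 14.0 to 18.9 TPM in the same order of groups. Pdgfrb, a receptor of pericytes and stroma, was at 12.1, 15.9 and 12.7 TPM in the labelled IRF7-/- c-kit+ libraries and at 0.68 to 2.87 TPM in the WT groups, and Cxcl12, a chemokine of marrow stroma, was at 1.20 to 1.60 TPM there against 0.05 to 0.51 TPM. Most of the sum without Lepr in the labelled libraries was Pdgfrb. Lepr itself averaged 48.7, 22.5 and 41.2 TPM in the 3 groups. Col1a1 averaged 0.67, 0.68 and 0.29 TPM and Col1a2 0.43, 0.21 and 0.20 TPM. Col3a1, Pdgfra and Kitl were also lowest on average in the labelled libraries. Adipoq and Ebf3 did not exceed 0.40 TPM in any library. Of the 10, 3 reached 1 TPM in WT c-kit-, 2 in WT c-kit+ and 3 in the labelled libraries. The 11 macrophage markers, led by Adgre1, summed to 105 to 131, 36.7 to 58.5 and 63.4 to 85.8 TPM, and the resident macrophage genes Vsig4 and Timd4 stayed at or under 0.17 TPM in all 9 libraries. The sum was highest in WT c-kit-, but its members did not move together. Cd163 was at 28.0 to 37.5 TPM in WT c-kit-, 2.77 to 6.08 TPM in WT c-kit+ and 5.96 to 6.93 TPM in the labelled libraries. In the same order of groups Mrc1 averaged 1.81, 0.98 and 0.43 TPM and Siglec1 0.70, 0.30 and 0.16 TPM. Spic averaged 0.10, 0.46 and 0.22 TPM. C1qa, C1qb and C1qc, subunits of complement C1q, averaged 0.57, 0.93 and 0.78 TPM in WT c-kit- and 2.87, 3.77 and 2.67 TPM in WT c-kit+, with averages of 1.43, 2.02 and 1.01 TPM for the labelled libraries. Cd5l, another gene of resident macrophages, averaged 0.05, 0.48 and 0.68 TPM in the 3 groups. The summed lymphocyte markers, led by Cd79b, were 26.9 to 38.9 TPM over all libraries. Summed erythroid markers were 3.81 to 18.3 TPM, and those of megakaryocytes and platelets were 2.47 to 3.98, 11.5 to 13.3 and 10.1 to 14.2 TPM. The part of RNA from endothelium, stroma, macrophages, megakaryocytes or any other of these cells in the Vcam1 values was not tested.

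RNA of both chains of VLA-4, the receptor of VCAM1, was present in all libraries. Itga4, the alpha4 chain of VLA-4, was at 84.4, 94.8 and 97.7 TPM in WT c-kit-, 46.8, 56.0 and 45.9 TPM in WT c-kit+, and at 52.8, 58.5 and 50.7 TPM in the labelled IRF7-/- c-kit+ libraries. Its c-kit+ groups overlapped, with a log2 difference of 0.12 and a 95% interval of -0.10 to 0.35 (limma adjusted p = 0.319), so the receptor chain stayed far closer than its ligand. Under median-ratio scaling this difference was -0.0048. Itgb1, the beta1 chain, was 61.0 to 71.4, 49.5 to 51.9 and 67.5 to 74.2 TPM, and differed between the c-kit+ groups by 0.48 ± 0.06 (SE, limma adjusted p = 0.00102). Itgb7, the other partner of alpha4, was at 463 to 513 TPM in WT c-kit-, 24.0 to 30.7 TPM in WT c-kit+ and 15.7 to 56.4 TPM in the labelled IRF7-/- c-kit+ libraries. It fell by 4.12 on the log2 scale between the WT groups (limma adjusted p = 5.8e-06). Itga9, whose integrin also binds VCAM1, was at 7.94, 3.91 and 7.06 TPM in the labelled IRF7-/- c-kit+ libraries and at most 1 TPM elsewhere, with a log2 fold change of 2.22 against WT c-kit+ (limma adjusted p = 0.00135).

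**Figure D2:**
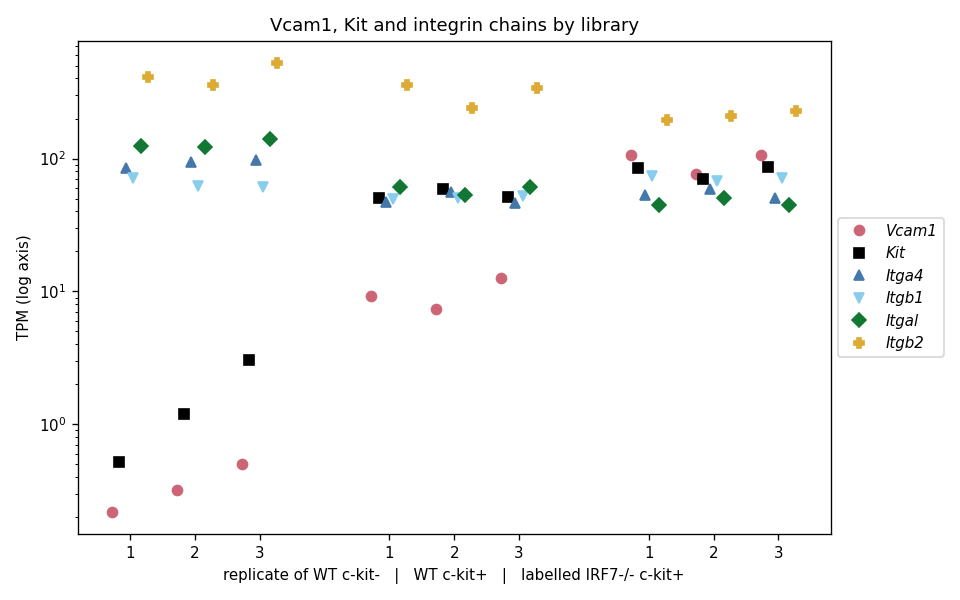
TPM (log axis) of Vcam1, Kit and the integrin chains Itga4, Itgb1, Itgal and Itgb2 in each of the 9 libraries, 1 symbol per gene. Vcam1 and Kit climb over the groups, while Itga4 and Itgb1 lie between 45.9 and 97.7 TPM, with Itga4 highest in WT c-kit-.

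Icam1 was at 11.6, 12.7 and 10.4 TPM in WT c-kit-, 4.60, 5.54 and 5.20 TPM in WT c-kit+, and at 10.5, 15.4 and 11.6 TPM in the labelled IRF7-/- c-kit+ libraries. WT c-kit+ lay below both other groups, which overlapped with each other. Its log2 fold change was -1.04 ± 0.12 between the WT groups (SE, limma adjusted p = 0.000705), a ratio of 2.26 in favour of WT c-kit-, and 1.13 ± 0.15 between the c-kit+ groups (SE, limma adjusted p = 0.00163), a ratio of 2.44. The second call rested on replicate 2 of the labelled IRF7-/- c-kit+ libraries, without which the value was 0.98. Against WT c-kit- the difference was 0.09, with a 95% interval of -0.28 to 0.46. Icam1 lies at chr9:21015985-21028817 on the plus strand.

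Icam2, at chr11:106377656-106388075 on the minus strand, was at 63.7, 62.7 and 56.3 TPM in WT c-kit-, 51.3, 59.1 and 53.6 TPM in WT c-kit+, and at 123, 105 and 126 TPM in the labelled IRF7-/- c-kit+ libraries. The WT groups overlapped, and the labelled libraries lay above both. The log2 fold change between the c-kit+ groups was 1.09 ± 0.09 (SE, limma adjusted p = 0.00025), or 0.98 and 0.96 under quantile and median-ratio scaling, where its call ended. Against WT c-kit- it was 0.94 ± 0.09 (SE, limma adjusted p = 0.000176), just under the fold threshold. It was past that threshold under quantile scaling and without replicate 2 of the labelled libraries, at 1.02 each.

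Pecam1, 266 kb from Icam2 on the same chromosome and strand at chr11:106654217-106750628, was at 83.7, 99.17 and 88.02 TPM in WT c-kit-, 37.9, 47.2 and 42.8 TPM in WT c-kit+, and at 101, 92.1 and 106 TPM in the labelled IRF7-/- c-kit+ libraries. As with Icam1, WT c-kit+ was lowest and the other groups overlapped. The log2 fold change was -1.07 ± 0.10 between the WT groups (SE, limma adjusted p = 0.000292) and 1.21 ± 0.09 between the c-kit+ groups (SE, limma adjusted p = 0.00021). The second held its call in all 13 alternatives.

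The RNA of the integrin LFA-1, which binds the ICAMs, moved otherwise between the c-kit+ groups. Itgal, its alphaL chain, was at 123 to 141 TPM in WT c-kit-, 53.6 to 61.5 TPM in WT c-kit+ and 44.6 to 50.2 TPM in the labelled IRF7-/- c-kit+ libraries, so it was lower where Icam1 and Icam2 were higher between the c-kit+ groups (log2 fold change -0.33 ± 0.08 SE, limma adjusted p = 0.0148). The adjusted p was 0.0513 to 0.0542 without replicate 1 or 3 of either c-kit+ group. Itgb2, the beta2 chain, was 360 to 523, 239 to 357 and 195 to 229 TPM, and differed by -0.55 ± 0.16 (SE, limma adjusted p = 0.0256), with an adjusted p of 0.0646 to 0.0801 without replicate 1 or 3 of WT c-kit+ or replicate 1 or 2 of the labelled libraries. Between the WT groups Itgal and Icam1 moved the same way, lower in WT c-kit+ by log2 fold changes of -1.13 and -1.04.

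Of 18 integrins and other partners, 13 were tested between the WT groups, of which 2 were higher and 5 lower, against 4.83% and 9.61% of all genes, with a median log2 fold change of -0.46 against -0.08. Ranked by size of change among genes whose higher group averaged 5 TPM or more, the leading 4 were Itgb7, Itgax at -1.74, Itgb3 at -1.58 and Itgal at -1.13, all lower in WT c-kit+, and the call of Itgal ended under quantile scaling at -0.95. Between the c-kit+ groups, where 6.30% of all genes were called higher and 5.39% lower, 1 of 14 was higher, Itga9, and 1 lower, Cxadr, the ligand of JAML, which is named here after its values were seen. Cxadr had a mean of 4.29 TPM in WT c-kit+ and 0.52 TPM in the labelled IRF7-/- c-kit+ libraries (log2 fold change -1.86, limma adjusted p = 0.00194). Against WT c-kit-, 4 of 13 were lower in the labelled libraries and 1 was higher, against 11.9% and 8.40% of all genes. In each comparison with WT c-kit-, 1 of the called genes of this list passed the filter through 1 group only.

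**Figure D3:**
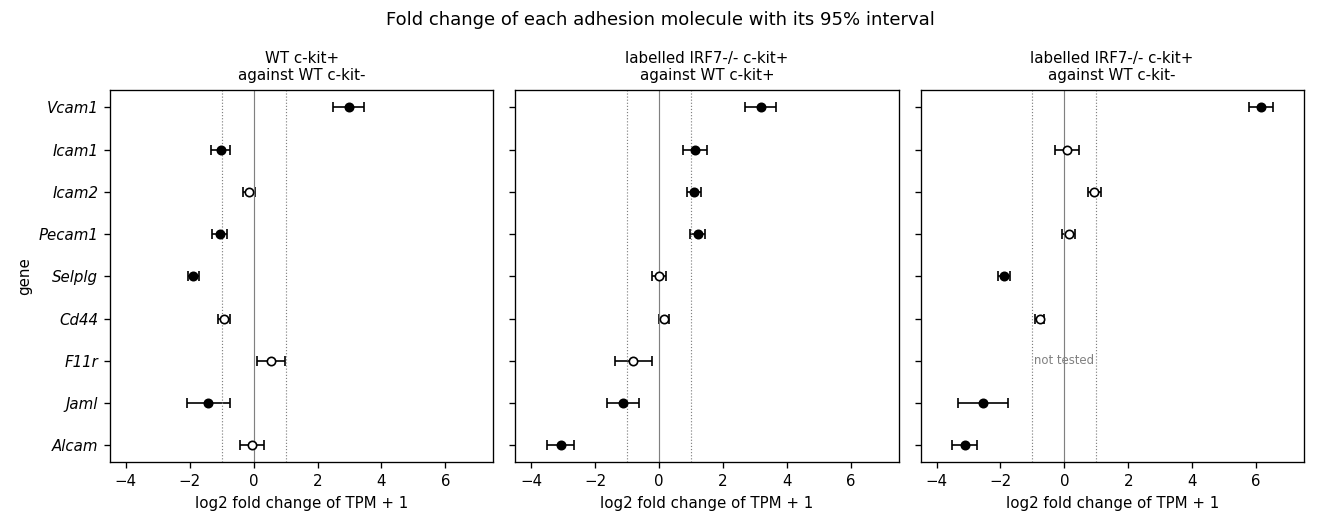
Log2 fold change of TPM + 1 (horizontal axis) for each adhesion molecule in the 3 comparisons, with 95% intervals from limma on 3 libraries per group, filled where the gene passed both thresholds, and dotted lines at -1 and 1. Vcam1 lies furthest to the right in each, at 2.97, 3.19 and 6.17, and Alcam furthest to the left in the 2 comparisons with the labelled IRF7-/- c-kit+ libraries, at -3.07 and -3.12.

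Selplg, at chr5:113818536-113832644 on the minus strand, was the most abundant member in every group. It was at 655, 614 and 628 TPM in WT c-kit-, 165, 160.1 and 185 TPM in WT c-kit+, and at 159, 189.7 and 163 TPM in the labelled IRF7-/- c-kit+ libraries. The c-kit+ groups overlapped and lay at about the same level, far below WT c-kit-. The log2 fold change between the WT groups was -1.89 ± 0.07 (SE, limma adjusted p = 1.2e-05), a ratio of 3.72. For the c-kit+ groups it was 0.0030 with a 95% interval of -0.21 to 0.22, so a difference of the size seen for Icam1 is outside the interval.

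Cd44, at chr2:102811141-102901665 on the minus strand and with 9 annotated transcripts that were not separated, was at 189, 176 and 194 TPM in WT c-kit-, 101.2, 88.4 and 101.1 TPM in WT c-kit+, and at 106, 111 and 108 TPM in the labelled IRF7-/- c-kit+ libraries. WT c-kit- was highest without overlap. Its log2 fold change between the WT groups was -0.94 ± 0.08 (SE, limma adjusted p = 0.000147), under the fold threshold. Between the c-kit+ groups it was 0.16, with a 95% interval of 0.00096 to 0.33 (limma adjusted p = 0.0891), and against WT c-kit- it was -0.77 ± 0.06 (SE, limma adjusted p = 5.8e-05).

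The enzymes that build the sugars of selectin ligands were read beside Selplg. Of 15, all tested between the WT groups, 6 were lower in WT c-kit+, against 9.61% of all genes, with a median log2 fold change of -0.93 against -0.08. C1galt1c1, the chaperone of the core 1 O-glycan enzyme, went from 140 ± 30.2 to 29.2 ± 4.81 TPM (SD, n = 3), which is a log2 difference of -2.22. Fut7, the fucosyltransferase that completes sialyl Lewis x, went from 56.7 ± 4.93 to 23.9 ± 2.57 TPM, at -1.22. B4galt5 changed by -2.01 and Gcnt1, which starts the core 2 branch, by -1.59. Limma adjusted p for these 4 were 5.8e-05 to 0.000174. In each comparison with WT c-kit-, 1 of the enzymes called lower passed the filter through that group only.

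Between the c-kit+ groups 0 of 14 tested enzymes passed both thresholds in limma, while 10 had a p under 0.05 both before and after adjustment, against 48.0% of all genes after it, and their median log2 fold change was 0.28 against 0.12 for all genes. Picked after their values were seen, Fut7 at 0.97, Fut4 at 0.95 and B4galt5 at 0.93 lay just under the fold threshold. Fut7 averaged 23.9 TPM in WT c-kit+ and 47.8 TPM in the labelled IRF7-/- c-kit+ libraries. Of those with an adjusted p under 0.05, Tpst2 and St3gal4 were lower, at -0.50 and -0.41. Against WT c-kit-, 6 of 15 were lower in the labelled IRF7-/- c-kit+ libraries, against 11.9% of all genes. With 5 TPM or more in the higher group the leading 4 were C1galt1c1 at -2.37, Gcnt1 at -1.83, St3gal4 at -1.38 and Tpst2 at -1.34. Gmds, named after its values were seen, was higher, at 1.30 (limma adjusted p = 9.0e-05). Tpst2 sulfates the tyrosines of PSGL-1 and St3gal4 adds its terminal sialic acids.

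Proteases that cut CD44, VCAM1 and other adhesion molecules from the cell, their regulators and the enzymes of hyaluronan made a list of 18. Between the WT groups 3 of 11 tested were lower in WT c-kit+, against 9.61% of all genes, Adam8 at -1.96, Adam15 at -1.28 and Rhbdf2, which guides ADAM17 to the surface, at -1.03. The call of Adam8 ended in 3 of 13 alternatives, with adjusted p up to 0.0778, and that of Rhbdf2 in 4. Adam17 and Adam10 are named after their values were seen. Adam17, the main sheddase of VCAM1 and of L-selectin, did not pass the fold threshold, with 48.9 to 52.0, 27.0 to 29.1 and 31.1 to 38.0 TPM in the 3 groups, and Adam10, which cuts CD44, lay at 59.1 to 73.4 TPM in all 9 libraries.

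Of the 10 genes tested between the c-kit+ groups, 2 were lower in the labelled IRF7-/- c-kit+ libraries and 1 was higher, against 5.39% and 6.30% of all genes. Mmp9, a gelatinase of granulocytes, was at 73.8, 26.8 and 70.1 TPM in WT c-kit+ against 3.85, 4.61 and 3.93 TPM in the labelled libraries, a log2 difference of -3.37 (limma adjusted p = 0.000726). Adam8 changed by -1.45, a call that ended in 3 of 13 alternatives with adjusted p up to 0.0552. Adam15 changed by 1.04, and by 0.94 and 0.91 under quantile and median-ratio scaling, where its call ended, as it did without replicate 1 of the labelled libraries. Against WT c-kit-, 3 of 10 were lower, against 11.9% of all genes, Mmp9, Adam8 and Rhbdf2.

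Alcam, a ligand of CD6 that also binds itself, lies at chr16:52248996-52454074 on the minus strand. It was at 15.7, 12.8 and 16.9 TPM in WT c-kit-, 16.4, 11.9 and 15.8 TPM in WT c-kit+, and at 1.07, 0.97 and 0.54 TPM in the labelled IRF7-/- c-kit+ libraries. The WT groups overlapped, and each labelled library lay below every WT library. The mean went from 14.7 ± 2.44 to 0.86 ± 0.28 TPM between the c-kit+ groups (SD, n = 3), a ratio of 17.1 in favour of WT c-kit+, with a log2 fold change of -3.07 ± 0.18 (SE, limma adjusted p = 7.1e-05). This was place 74 from the bottom of 13238 genes. Between the WT groups the difference was -0.05 with a 95% interval of -0.42 to 0.33, and its sign turned under both other scalings.

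Jaml, the JAM-like receptor of CXADR, lies at chr9:45079183-45108534 on the plus strand, where the noncoding Gm10684 (up to 0.11 TPM) overlaps it on the other strand. It was at 3.67, 5.77 and 9.44 TPM in WT c-kit-, 1.73, 1.47 and 1.56 TPM in WT c-kit+, and at 0.04, 0.57 and 0 TPM in the labelled IRF7-/- c-kit+ libraries. The groups did not overlap, and the order was the reverse of that of Vcam1. The log2 fold change was -1.42 ± 0.29 between the WT groups (SE, limma adjusted p = 0.00751), -1.13 ± 0.21 between the c-kit+ groups (SE, limma adjusted p = 0.00527) and -2.55 ± 0.33 between the outer groups (SE, limma adjusted p = 0.000666). With the filter of 5 TPM Jaml was no longer tested.

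F11r, at chr1:171437535-171464603 on the plus strand, was near the lower end of detection in all groups. It was at 0.97, 0.94 and 0.85 TPM in WT c-kit-, 2.51, 1.47 and 1.50 TPM in WT c-kit+, and at 0.27, 0.52 and 1.11 TPM in the labelled IRF7-/- c-kit+ libraries. WT c-kit+ lay above the other groups, which overlapped. Its log2 fold change was 0.54 between the WT groups (limma adjusted p = 0.0542) and -0.80 ± 0.24 between the c-kit+ groups (SE, limma adjusted p = 0.0331, and 0.0564 to 0.102 in 6 of 12 alternatives), under the fold threshold. It was past both thresholds with a pseudocount of 0.1, at -1.52, and without replicate 3 of the labelled libraries at -1.005.

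The order of the members changed with the group. In WT c-kit- it ran from Selplg over Cd44, Pecam1, Icam2, Alcam, Icam1, Jaml and F11r to Vcam1, and no neighbours overlapped. In WT c-kit+ Vcam1 stood in the sixth place, overlapping Alcam above it, and F11r and Jaml overlapped at the end. In the labelled IRF7-/- c-kit+ libraries Selplg came first, the run of Icam2, Cd44, Pecam1 and Vcam1 overlapped from each to the next, and so did Alcam, F11r and Jaml. Summed over the 9 members, TPM were 985 to 1023 in WT c-kit-, 382.5 to 419 in WT c-kit+ and 592 to 624 in the labelled IRF7-/- c-kit+ libraries.

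Across the 9 libraries, on log2(TPM + 1), Pearson's r with Vcam1 was -0.95 for Jaml, -0.87 for Alcam, -0.85 for Selplg, -0.74 for Cd44, 0.79 for Icam2, 0.12 for Pecam1, 0.07 for Icam1 and -0.28 for F11r. The libraries fall into 3 groups, so these values describe the group levels and carry no p. Of 11063 other genes with at least 5 TPM on average in a group, the 5 most like Vcam1 were Ccdc149 (r = 0.997), Fgl2 (0.996), 9330159M07Rik (0.995), Fnbp1l (0.995) and Siglecf (0.994). Fgl2, a secreted fibrinogen-like protein, went from 6.98 ± 1.58 over 32.9 ± 1.89 to 134 ± 26.2 TPM (SD, n = 3), and Siglecf, a sialic acid receptor known from eosinophils, from 3.90 ± 0.58 over 19.9 ± 2.03 to 167 ± 20.1 TPM.

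A list of 34 other adhesion molecules that are not integrins was read in the same way. Of 18 tested between the WT groups, 7 were lower in WT c-kit+, against 9.61% of all genes, and 2 of these passed the filter through WT c-kit- only. With 5 TPM or more in the higher group the leading 4 were L1cam at -3.24, Cd48 at -1.98, Emb at -1.90 and Pvr at -1.15, with limma adjusted p of 1.1e-05 to 0.00274. L1cam, a neuronal adhesion protein of the immunoglobulin family, was at 62.5 to 65.8 TPM in WT c-kit-, 4.98 to 6.98 TPM in WT c-kit+ and 2.17 to 4.53 TPM in the labelled IRF7-/- c-kit+ libraries. The call of Pvr ended under quantile scaling at -0.99.

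Of 17 of these molecules tested between the c-kit+ groups, 3 were higher in the labelled IRF7-/- c-kit+ libraries and 1 was lower, against 6.30% and 5.39% of all genes. Nectin2, a ligand of the lymphocyte receptor DNAM-1, was at 0.61, 0.73 and 0.60 TPM in WT c-kit+ against 15.2, 13.1 and 18.5 TPM in the labelled libraries, a log2 fold change of 3.32 ± 0.15 (SE, limma adjusted p = 2.7e-05). Ptprm, a phosphatase that binds itself between cells, was at 0.49 to 1.25 TPM and 5.95 to 11.3 TPM, at 2.34. Nectin2 passed the filter through the labelled libraries only. Pvr, another DNAM-1 ligand, changed by 1.10, a call that ended under median-ratio scaling at 0.98 and without replicate 1 of WT c-kit+ at 0.96. Cd24a, a mucin-like ligand of P-selectin, was at 401, 334 and 385 TPM in WT c-kit+ against 29.6, 115 and 25.7 TPM in the labelled libraries, a log2 difference of -3.03 (limma adjusted p = 0.00398), with replicate 2 of the labelled libraries highest of the 3. Against WT c-kit-, 3 of 18 were higher and 6 lower, against 8.40% and 11.9% of all genes, and 2 of the 9 passed the filter through 1 group only.

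**Figure D4:**
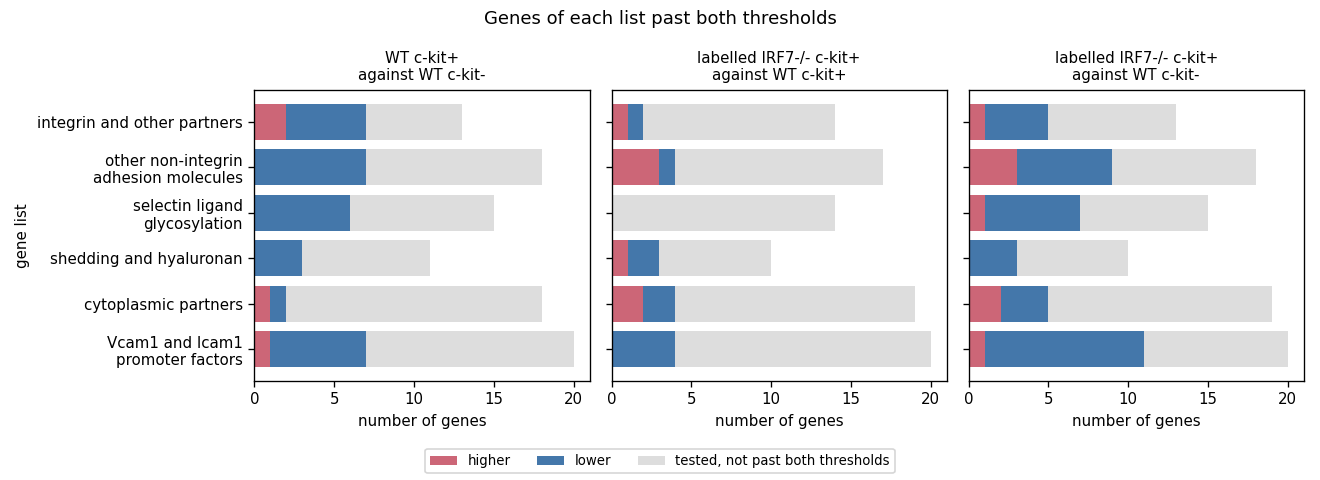
Number of genes (horizontal axis) of each of 6 lists that were higher, lower or tested without passing both thresholds, in the 3 comparisons. Of the 15 selectin ligand enzymes, 6 are lower in WT c-kit+ than in WT c-kit-, and none passes between the c-kit+ groups.

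Proteins that tie these molecules to the cytoskeleton or carry their signals were on a list of 21. Between the WT groups 1 of 18 was higher, Actn1, and 1 lower, Msn, against 4.83% and 9.61% of all genes. Actn1, which binds the tail of ICAM1, was at 9.85, 12.0 and 53.1 TPM in WT c-kit- and at 59.2 to 95.6 TPM in WT c-kit+, a log2 difference of 1.98. Without replicate 3 of WT c-kit-, its highest library there, the difference was 2.71, and without replicate 1 or 2 it was 1.55 or 1.68. The call ended in 6 of 13 alternatives with adjusted p up to 0.106. Msn (moesin), which binds the tails of CD44, PSGL-1 and the ICAMs, went from 447 ± 24.0 to 174 ± 12.3 TPM (SD, n = 3), or -1.36 on the log2 scale (limma adjusted p = 3.5e-05). Of 19 tested between the c-kit+ groups, 2 were higher and 2 lower, against 6.30% and 5.39% of all genes. Rdx (radixin), of the same family as moesin, was at 65.9, 60.4 and 68.1 TPM in WT c-kit+ against 189, 176 and 175 TPM in the labelled IRF7-/- c-kit+ libraries, at 1.46 ± 0.06 (SE, limma adjusted p = 2.7e-05). Actn1 and Vcl (vinculin) were lower there, by log2 fold changes of -2.84 and -1.74. The other higher gene was Cttn (cortactin), named after its values were seen, at 1.94, which passed the filter through the labelled libraries only. Against WT c-kit-, 2 of 19 were higher, 1 of them through the labelled libraries only, and 3 lower, against 8.40% and 11.9% of all genes.

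Factors known to act on the promoters of Vcam1 and Icam1 were on the last list of 21. Between the WT groups 6 of 20 tested were lower in WT c-kit+ and 1 was higher, against 9.61% and 4.83% of all genes. Klf4 changed by -4.16, Fos by -2.41 and Relb, a subunit of NF-kB, by -1.36, while Ets1 rose from 4.53 ± 3.65 to 29.2 ± 7.10 TPM (SD, n = 3), or 2.61 on the log2 scale (limma adjusted p = 0.00352). Of 20 tested between the c-kit+ groups, 4 were lower in the labelled IRF7-/- c-kit+ libraries, against 5.39% of all genes. Klf2 was at 118, 103 and 45.0 TPM in WT c-kit+ against 3.01, 5.22 and 4.81 TPM in the labelled libraries, at -3.98 ± 0.37 (SE, limma adjusted p = 0.000389). Whether any factor of this list acts on Vcam1 or Icam1 in these cells was not tested.

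Klf4 was under 1 TPM in all 3 labelled libraries, at 0.21 to 0.57 TPM, so in both comparisons with them it passed the filter through the WT group only and had to differ to be tested. The other 3 values were Klf4 at -2.40, Jun at -3.76 and Ets1 at -1.13, and the call of Ets1 ended without replicate 1 of WT c-kit+ or replicate 2 of the labelled libraries. Against WT c-kit-, 10 of 20 were lower in the labelled group and 1 was higher, against 11.9% and 8.40% of all genes, with a median log2 fold change of -0.81 over the list and 0.03 over all genes. By size the first 4 were Klf4 at -6.56, Klf2 at -4.88, Jun at -4.25 and Fos at -3.18. The libraries of Klf2, Klf4 and Jun did not overlap between the c-kit+ groups, and those of Fos did.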

How the data were processed

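RNA was sequenced from 9 libraries, 3 per group, made with the TruSeq RNA kit v2. The values deposited by the authors, 55536 genes in 1 table, are TPM, scaled for gene length and library total; the labels do not name the unit, which was read from library sums of 987468 to 992231. The aligner, counter, genome build and strand setting are not given in the sources used here, and all 55536 gene IDs are in GENCODE M21 (GRCm38), from which coordinates were taken. TPM hold no read numbers, so depth is unknown and gene-level values do not separate isoforms. The study's text calls the assay a microarray, whereas the labels describe RNA sequencing.

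Groups and replicate numbers came from the labels. Values were taken as log2(TPM + 1), and a gene was tested if 3 or more of the 6 libraries compared reached 1 TPM, by limma 3.58.1 (R 4.3.3; lmFit, eBayes with trend), each pair of groups on its own 6 libraries, with Benjamini-Hochberg adjustment over all genes tested. Fits were also run on simulated data with independent normal errors, no genes of low mean and changes well past the fold threshold. That run therefore says nothing about genes near the filter or the fold threshold. Exact permutation tests used scipy 1.17.1. Named genes were the 9 members, Irf7, Kit, 4 integrin chains, at most 4 genes per list and comparison with the largest change past both thresholds whose higher group averaged 5 TPM or more, and the 5 genes most correlated with Vcam1; genes outside this rule are marked in the text. The members and lists were chosen with earlier results of these data known. Alternatives were quantile normalization, median-ratio scaling, a pseudocount of 0.1, no filter, a minimum of 5 TPM, 1 fit of all 9 libraries, a replicate block and leaving out each library in turn.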

Additional observations from a re-analysis of the deposited data

How the results depend on the processing

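Vcam1 kept its direction and its call in all 13 alternatives of each comparison, with log2 fold changes of 2.79 to 4.48, 3.03 to 3.38 and 6.09 to 7.79 and adjusted p of at most 0.000767, 0.00097 and 0.000127. Over the members' fold changes, 307 of 333 alternative values kept direction and side of the thresholds, 11 lost the call, 4 gained it and 11 changed sign; the cause was not tested. Between the WT groups 3 members were called under quantile and under median-ratio scaling, and 3 to 5 when 1 library was left out. Between the c-kit+ groups 1015 genes were called with the filter of 5 TPM, against 1548, with fewer genes tested. Signs turned for values that did not pass the test. Between the WT groups Icam2 was 0.028 under quantile scaling, and Alcam was 0.11 under quantile and 0.053 under median-ratio scaling and -0.15 to 0.090 without 1 library. Between the c-kit+ groups Selplg was -0.092 under quantile and -0.13 under median-ratio scaling and -0.076 to 0.065 without 1 library, and Itga4 was -0.0048 under median-ratio scaling. Against WT c-kit- Icam1 was -0.062 to 0.19 without 1 library. The median of all genes between the c-kit+ groups moved from 0.12 to 0.03 under quantile and 0.0004 under median-ratio scaling. Deviations from the group means correlated at -0.07 to 0.24 between libraries with the same replicate number and at -0.18 to 0.14 between others, so the numbers were not taken as pairs; with a replicate block 5, 6 and 4 members and 1950, 1549 and 2749 genes were called, against 1916, 1548 and 2738 genes without it. Depth is unknown, and 3 libraries per group limit the precision.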
